A study of Mus musculus with 10 samples.

Results

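The chemokine receptors described here were 9 genes, *Cxcr4*, *Cxcr5*, *Ccr7*, *Ccr9*, *Cxcr6*, *Ccr1*, *Ccr2*, *Cxcr2* and *Cx3cr1*, among 24062 genes counted by RNA-seq. They were taken by name, with no threshold on a measured value. A further 14 receptors of the family served as comparison. RNA came from 10 mouse libraries in 4 groups. The progenitors were LSK cells (Lin- SCA1+ KIT+) from the marrow of C57BL/6J mice, cultured with SCF, FLT-3 ligand, IL-6, IL-11, serum and Retronectin. The no Notch control (IgG, 4 libraries) was grown on human IgG1 and harvested on day 14, and no sort is described for it. DN1 (KIT++ CD44+ CD25-), DN2a (KIT++ CD44+ CD25+) and DN2b (KIT+ CD44lo CD25+) cells, with 2 libraries each, were sorted from cultures on a high density of immobilized Delta1ext-IgG, a Notch ligand. IL-7 was present for DN2a and DN2b and absent for DN1, so stage and IL-7 cannot be told apart. In every comparison with the control, the Notch ligand and the sort also change together. Time in culture may differ too. IL-7 was added on day 14, and the harvest days of the DN cells are not given in the sources used here. The age of the mice is not given in the sources used here. The title of each DN library holds a date, and in each stage replicate 1 is the earlier-dated and replicate 2 the later-dated library. DN2a and DN2b share their dates, and those of DN1 lie some days before. The control libraries were named D1, D2, R1 and R2.

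Chemokine receptors are proteins with 7 membrane-spanning helices that couple to Gi proteins and steer cells toward gradients of small secreted chemokines. Ligand binding is followed by G protein release, then by phosphorylation through receptor kinases, arrestin recruitment and internalization, while RGS proteins shorten the G protein signal. CXCR4, the receptor of CXCL12, keeps progenitors in the marrow, and CCR7 and CCR9 are known for bringing progenitors to the thymus and for moving thymocytes within it. CCR1, CCR2, CXCR2 and CX3CR1 are known from monocytes, macrophages and neutrophils.

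The receptors derive from a common ancestor and their coding sequences resemble each other, while the deposited counts rest on 36-base reads. Stretches of that length are shown to let a reader see how far such reads can tell the members apart. Each starts at the codons, in capitals, of the Asp-Arg-Tyr triplet (Asp-Arg-Phe in *Cxcr6*) that follows the third membrane helix, and runs 5′ to 3′ along the coding strand of GRCm38 (mm10), with codon positions from the GENCODE vM21 annotation.
Cxcr4 (chr1:128589485-128589520, minus strand): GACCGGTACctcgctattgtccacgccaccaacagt
Cxcr5 (chr9:44513882-44513917, minus strand): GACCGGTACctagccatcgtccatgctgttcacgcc
Ccr7 (chr11:99145603-99145638, minus strand): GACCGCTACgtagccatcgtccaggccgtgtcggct
Ccr9 (chr9:123779681-123779716, plus strand): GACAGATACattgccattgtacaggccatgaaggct
Cxcr6 (chr9:123810338-123810373, plus strand): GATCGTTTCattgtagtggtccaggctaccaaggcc
Ccr1 (chr9:123964069-123964104, minus strand): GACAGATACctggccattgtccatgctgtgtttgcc
Ccr2 (chr9:124106132-124106167, plus strand): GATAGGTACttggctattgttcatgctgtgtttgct
Cxcr2 (chr1:74158772-74158807, plus strand): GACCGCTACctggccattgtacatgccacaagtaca
Cx3cr1 (chr9:120051921-120051956, minus strand): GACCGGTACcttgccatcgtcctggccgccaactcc
Between pairs of these windows, 6 (*Ccr1* and *Ccr2*) to 18 (*Ccr2* and *Cxcr6*) of the 36 bases differed, with a median of 12 over 36 pairs. Over the whole exons of the protein-coding transcripts, no 36-base stretch of *Cxcr4*, *Ccr7* or *Cxcr6* occurred in another gene. The share was 0.429% for *Ccr1* (all with *Ccr3*), 2.83% for *Ccr2*, 2.31% for *Cx3cr1*, 2.50% for *Cxcr5* (with the overlapping *Bcl9l*), 5.55% for *Ccr9* and 10.3% for *Cxcr2*. Exons of *Cxcr5*, *Ccr9* and *Cx3cr1* overlap those of other genes (78 bases with the antisense gene *Gm33858* for *Cx3cr1*), and the strand setting of the counting is not given in the sources used here, so their low counts in particular are uncertain.

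Reads on genes ranged from 12354635 to 35367925 per library. The detection floor was set at 3 counts, or 0.0848 to 0.243 CPM, the count per 1000000 reads on genes. The log2 fold changes (log2FC) and adjusted p values are from edgeR's quasi-likelihood test with TMM scaling and Benjamini-Hochberg adjustment over 12221 genes, called at an adjusted p under 0.05. TMM factors ran from 0.858 to 1.19. With scaling to library size alone, the median log2FC of all genes moved by 0.26 in DN1 vs IgG, by -0.20 in DN2a vs DN1 and by -0.19 in DN2b vs DN1, and no member changed sign. That scaling gave 2585 higher and 1627 lower genes in DN1 vs IgG, against 1753 and 2081 with TMM. Labels were checked on the sorting markers. *Il2ra*, which encodes CD25, lay between 1133 and 2121 CPM in DN2a and DN2b, at 20.6 and 27.6 in DN1 and between 0.339 and 1.85 in the control. *Kit* did not separate the DN2 stages. DN2b libraries, sorted as KIT+, had 127 and 179 CPM, while DN2a libraries, sorted as KIT++, had 176 and 205. DN1 libraries, also sorted as KIT++, had 346 and 438 CPM, and controls 23.0 to 115. *Cd44* was lower in DN2b (11.1 and 13.1 CPM), the CD44lo sort, than in DN2a (45.1 and 52.5), a CD44+ sort. DN1 libraries, also CD44+, had 139 and 173 CPM, and controls 356 to 566. *Cd3e*, not a sorting marker, was at 0 in all 4 control libraries. Markers of other cells differed between the groups as well. The summed neutrophil list (7 of 8 genes in the files) was 21031 to 58147 CPM in the control, 2837 and 68.4 CPM in DN1 replicates 1 and 2, 2.84 to 4.89 CPM in DN2a and 0.911 to 1.21 CPM in DN2b. The macrophage and monocyte list (8 genes) summed to 8769 to 16207 CPM in the control, 64.7 to 308 in DN1, 13.5 to 18.3 in DN2a and 16.8 to 47.5 in DN2b. Of these lists, *Elane*, *Ngp*, *Camp*, *Cd14* and *Msr1* were at 0 in both DN2b libraries. Mast cell and basophil markers (7 genes) summed to 39.1 to 177 CPM in the control and 251 to 1675 in the DN libraries. All 7 exceeded the floor in a control library, but only 2 did so in a DN2b library. The number was 6 for DN1 and 5 for DN2a. *Prss34* and *Tpsb2* were at 0 in every DN2 library, and *Cma1* was at 0 in both DN2b libraries. The higher sum in DN2b thus rests on few genes of the list. Eosinophil markers summed to 14.6 to 387 CPM in the control, 0.433 to 14.3 in DN1 and 0 in both DN2 stages. The T lineage list summed to 449 to 604 CPM in the control and 841 to 914 in DN1. It summed to 1893 to 2447 CPM in DN2a and 2655 to 2985 in DN2b. This list holds *Kit*, *Cd44* and *Il2ra*, the genes of the sorting markers. *Cd44* made up most of the sum in every control library, and *Il2ra* most of it in every DN2a and DN2b library. In bulk RNA, fewer cells of a type and less RNA per cell cannot be told apart. The part of these cells in the results below was not tested.

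The receptors with the highest levels per kb of exon differed between the groups. The control was dominated by *Ccr1*, *Cxcr4* and *Ccr2*, and *Cxcr4* was highest in both DN2b libraries, followed by *Ccr7* in replicate 1 and by *Ccr2*, *Cxcr5* and *Ccr7* in replicate 2. *Cxcr5* was higher in DN2a and DN2b than in the control. *Cxcr4*, *Ccr1* and *Cxcr2* were lower in all 3 DN stages, and *Cx3cr1* passed as lower in DN2a, which did not pass against DN1 or DN2b (adjusted p = 0.303 and 1.0). *Ccr2*, *Ccr7* and *Ccr9* passed in no comparison, and *Cxcr6* was too low to be tested. Of the 8 members that reached 1 CPM in 2 or more libraries and so were tested, 0 were higher and 3 lower in DN1 vs IgG, where 14.3% of all genes tested were higher and 17.0% lower. In DN2a vs IgG 1 was higher and 4 were lower, beside 21.2% and 24.3% of all genes. In DN2b vs IgG 1 was higher and 3 were lower, beside 19.9% and 22.5%. The median log2FC of the 8 members was -1.76, -1.98 and -1.38 in these comparisons, and that of all genes 0.01, -0.05 and -0.05. With 8 genes, these counts are a description of the members.

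**Figure D1:**
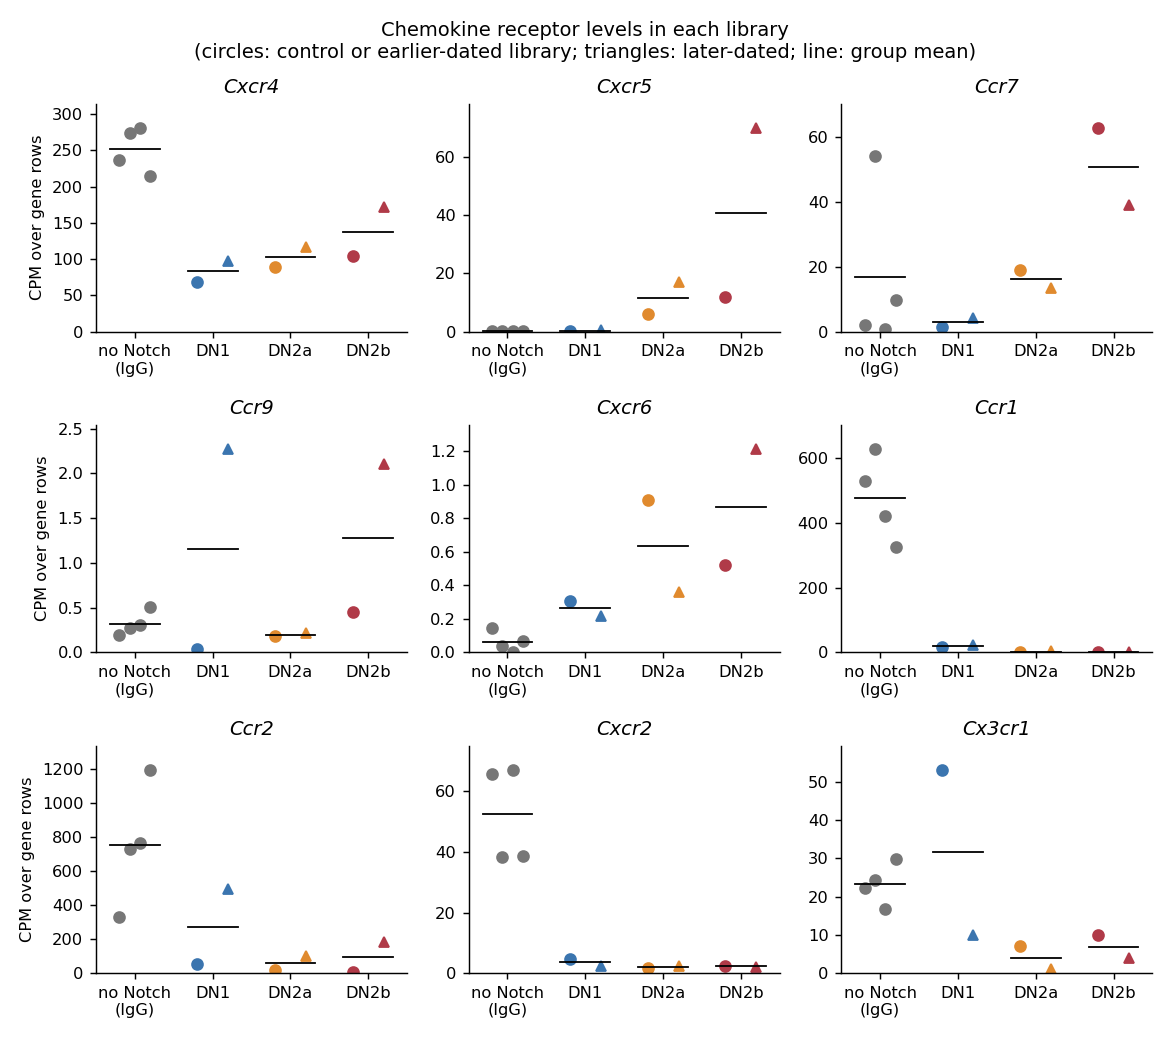
CPM (y axis, linear from 0, a separate scale for each gene) of the 9 receptors in each library of the 4 groups (x axis), with circles for control and earlier-dated libraries, triangles for later-dated ones and a line at the group mean. Control libraries lie above every DN library for *Cxcr4*, *Ccr1* and *Cxcr2*, DN2 libraries lie above all others for *Cxcr5*, and single libraries stand apart for *Ccr7* (54.0 CPM in control D2) and *Cx3cr1* (53.1 CPM in DN1 replicate 1).

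Between DN stages, *Cxcr5* was higher in DN2b than in DN1, and it was the 1 member called there. In DN2b vs DN1, 1.01% of genes tested were higher and 0.892% lower. No member passed in DN2a vs DN1 (1, *Cxcr5*, with the replicate block described with that gene), where 0.401% of genes were called in either direction. An unadjusted p under 0.05 was found there for 3 members, beside 1328 of all 12221 genes. DESeq2 called 3 members (*Cxcr5*, *Ccr1* and *Cx3cr1*), beside 474 of all genes. In DN2b vs DN2a no gene was called (0.0%), 335 of all genes and 0 of the members had an unadjusted p under 0.05, and DESeq2 called 29 genes, with 0 members among them. The median log2FC of the members was -1.31 in DN2a vs DN1, -0.06 in DN2b vs DN1 and 0.73 in DN2b vs DN2a.

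The receptors of progenitor retention and lymphoid homing come first. *Cxcr4* (chromosome 1, 128588199 to 128592293, minus strand, GRCm38) had 68.9 CPM in replicate 1 of DN1 and 97.4 in replicate 2, and pairs of DN values below keep that sequence. It had 88.9 and 117 CPM in DN2a and 104 and 171 in DN2b. The control libraries D1, D2, R1 and R2 had 237, 274, 281 and 215 CPM. Every control library was above every DN library, and the DN stages overlapped except for DN2b, whose 2 libraries were above both of DN1. The log2FC was -1.87 in DN1 vs IgG (SE of 0.33 and adjusted p of 0.00376), -1.37 in DN2a vs IgG (SE of 0.32 and adjusted p of 0.00807) and -0.97 in DN2b vs IgG (SE of 0.32 and adjusted p of 0.0334). In DN2b vs DN1 it was 0.90 (SE of 0.35) and did not pass (adjusted p = 0.290).

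The DN1 call for *Cxcr4* held with each of the 10 libraries left out in turn. That in DN2a was lost without DN2a replicate 1 (log2FC -1.15, adjusted p = 0.0957). That in DN2b was lost in 5 of 10 such fits, without DN2a replicate 1 (adjusted p = 0.0502), DN2b replicate 1 (log2FC -0.68, adjusted p = 0.239), control D1 (0.0529), D2 (0.0577) or R1 (0.0689), and with controls R1 and R2 alone (log2FC -0.82, adjusted p = 0.109). Among the earlier-dated and among the later-dated libraries, the CPM of *Cxcr4* followed the order DN1, DN2a, DN2b from low to high. As a description over the 10 libraries, the genes with the most similar pattern on log2(CPM + 0.5) were *Tlr6* (Pearson r = 0.985) and *Atp6ap2* (r = 0.979).

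*Cxcr5* (chromosome 9, 44511787 to 44561877, minus strand), the receptor of CXCL13 that guides lymphocytes to follicles, had 0.0969, 0.277, 0.0565 and 0.169 CPM in the control libraries, which is 2 to 7 counts. DN1 had 0.0442 CPM (1 count) and 0.649 CPM (12 counts). DN2a had 5.97 and 17.1 CPM and DN2b 11.7 and 69.9. All 4 DN2 libraries were above all DN1 and control libraries, DN1 overlapped the control, and DN2a overlapped DN2b. The log2FC was 0.92 in DN1 vs IgG (SE of 1.14 and adjusted p of 0.565), 6.18 in DN2a vs IgG (SE of 0.99 and adjusted p of 0.00146) and 7.96 in DN2b vs IgG (SE of 1.04 and adjusted p of 6.1e-04). Both calls over the control held in all 10 fits with a library left out, with values from 5.18 to 6.77 in DN2a and from 6.21 to 8.74 in DN2b. Without DN1 replicate 2, the DN1 value turned to -1.91.

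Against DN1, *Cxcr5* had a log2FC of 5.26 in DN2a (SE of 1.26 and adjusted p of 0.154) and 7.04 in DN2b (SE of 1.34 and adjusted p of 0.0342). The study isolated the DN stages from each LSK replicate, and DN2a and DN2b share their dates. With the replicate number as a block for this pairing in the 6 DN libraries (replicate block), the DN2a value was 5.53 and passed (adjusted p = 0.0376), and the DN2b value was 7.02 (adjusted p = 0.0140). Without the block in the same 6 libraries, the DN2b value of 7.07 did not pass (adjusted p = 0.0706). The DN2b call was lost when any of 6 libraries was left out, namely DN1 replicate 1 (log2FC 6.06, adjusted p = 0.174), DN2b replicate 2 (5.27, 0.144), DN2a replicate 1 (7.06, 0.0583), DN2a replicate 2 (7.04, 0.0561), control R1 (7.04, 0.0511) or control R2 (7.04, 0.0589), and when only DN1 and DN2b were fitted (7.09, 0.128). On log2 ratios of CPM with 0.5 added, DN2a exceeded DN1 by 3.57 between replicates 1 and by 3.94 between replicates 2, and DN2b exceeded DN1 by 4.49 and 5.94. *Cxcr5* stands on the high-dose list that the study drew from these libraries, so its rise in DN2b is not independent evidence. The most similar patterns over the 10 libraries were those of *Actr3b* (r = 0.991) and *Gimap4* (r = 0.987).

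*Ccr7* (chromosome 11, 99144196 to 99155077, minus strand), the receptor of CCL19 and CCL21, had 1.41 and 4.33 CPM in DN1. DN2a libraries had 19.1 and 13.5 CPM, and those of DN2b 62.8 and 39.0. Controls D1, R1 and R2 had 2.08, 0.877 and 9.81 CPM, and control D2 had 54.0. The DN stages did not overlap and lay in the order DN1, DN2a, DN2b from low to high, while the control libraries spanned nearly the whole DN range. No comparison passed. The log2FC was 2.67 in DN2a vs DN1 (SE of 1.62 and adjusted p of 0.597), 4.32 in DN2b vs DN1 (SE of 1.73 and adjusted p of 0.302) and 1.65 in DN2b vs DN2a (SE of 1.53 and adjusted p of 1.0). With the 6 DN libraries alone, a fit added after the values were seen, 4.32 had an adjusted p of 0.0271, and with the replicate block 4.35 had one of 0.0575. Against the control it was -2.87 in DN1 (SE of 1.53 and adjusted p of 0.180), -0.20 in DN2a and 1.45 in DN2b (SE of 1.25 and adjusted p of 0.366).

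These last values of *Ccr7* depended on control D2. Without it, DN2b vs IgG was 3.65 and passed (adjusted p = 0.00991), DN2a vs IgG turned to 2.005 (adjusted p = 0.0757) and DN1 vs IgG was -0.67. D2 also had the highest sum of the controls for 7 of 10 marker lists, those of neutrophils, eosinophils, mast cells and basophils, B cells, NK cells, megakaryocytes and erythroid cells. The eosinophil list, for example, summed to 387 CPM in D2 and 70.3, 14.6 and 130.5 in D1, R1 and R2, and the NK cell list to 160.6 and 11.1, 14.5 and 47.8. Whether that bears on *Ccr7* was not tested. *Rnf125* (r = 0.965) and *Gbp3* (r = 0.942) had the most similar patterns.

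*Ccr9* (chromosome 9, 123678439 to 123784330, plus strand), the receptor of CCL25 in thymus and gut, had low counts in every library. Control libraries held 4, 7, 11 and 15 counts. DN1 held 1 and 42, DN2a held 5 and 3, and DN2b held 7 and 26. The highest levels, 2.27 CPM in DN1 and 2.10 in DN2b, were both in later-dated libraries, and the groups overlapped except DN2b and DN2a. The log2FC was 1.64 in DN1, -0.74 in DN2a and 1.90 in DN2b over the control, with adjusted p = 0.288, 0.660 and 0.196. The log2 ratio of DN2a to DN1 was 0.33 between the earlier-dated and -1.95 between the later-dated libraries. No pair of stages passed (adjusted p = 0.598 in DN2a vs DN1, 0.958 in DN2b vs DN1 and 1.0 in DN2b vs DN2a). Among genes at 5 CPM or more, *Avl9* (r = 0.942) and *Zfx* (r = 0.910) had the nearest pattern.

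*Cxcr6* (chromosome 9, 123806475 to 123811760, plus strand), which binds CXCL16 and is known from activated T and NKT cells, reached 1 CPM in 1 library, 1.21 in DN2b replicate 2, and so did not enter the test. Control libraries held 3, 1, 0 and 2 counts, all at the floor. DN1 held 7 and 4 counts, DN2a 25 and 5, and DN2b 8 and 15. Every DN library was above every control library in CPM, and the DN2 libraries were above those of DN1. When genes of any non-zero count were tested, *Cxcr6* passed in DN2a vs IgG (adjusted p = 0.0465) and DN2b vs IgG (adjusted p = 0.0317) and not in DN1 vs IgG (adjusted p = 0.326). No fold is given, since the control is at the floor.

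**Figure D2:**
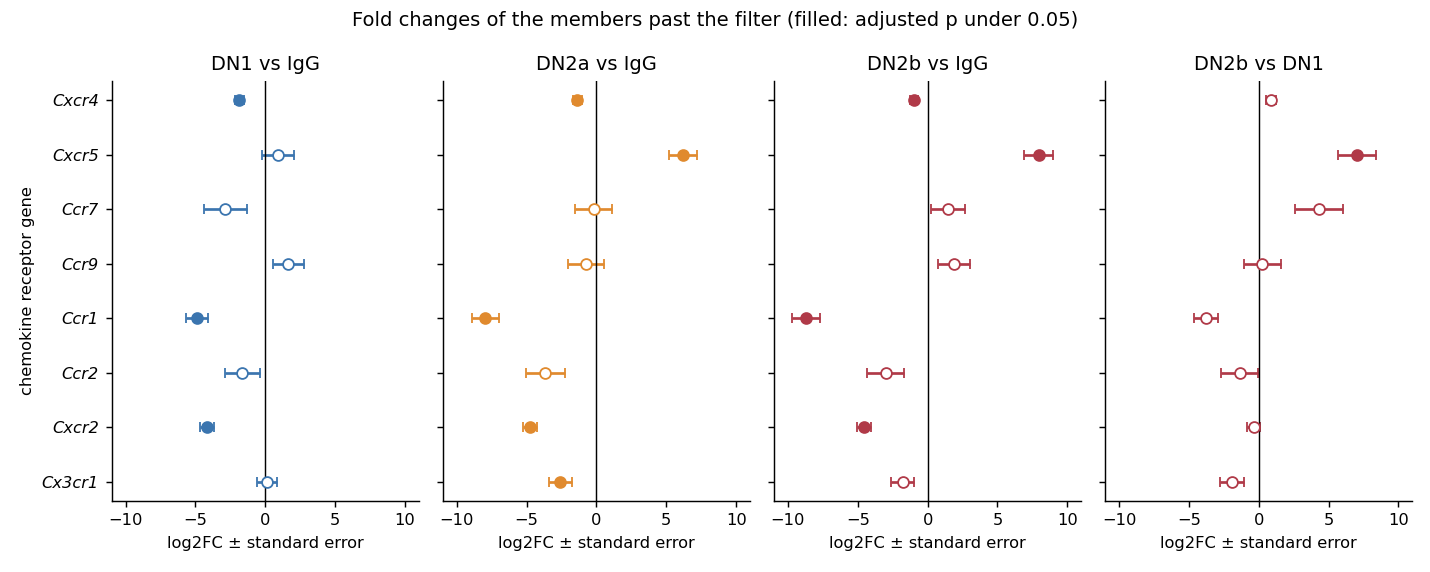
log2FC (x axis) of the 8 receptors past the filter (y axis) in DN1, DN2a and DN2b vs IgG and in DN2b vs DN1, each panel 1 comparison. Points are edgeR estimates, bars their standard errors, and filled points passed an adjusted p of 0.05. *Ccr1* reached -8.69 and *Cxcr5* 7.96 in DN2b vs IgG, while *Cxcr5* (7.04) was the single call in DN2b vs DN1.

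Of the inflammatory and myeloid receptors, *Ccr1* and *Cxcr2* were lower than the control in all 3 DN stages, *Cx3cr1* passed in DN2a, and *Ccr2* did not pass. *Ccr1* (chromosome 9, 123962124 to 123968692, minus strand), the receptor of CCL3 and CCL5, had 531, 629, 422 and 328 CPM in the control. DN1 had 15.7 and 23.6 CPM, DN2a 0.984 and 3.31, and DN2b 0.325 and 2.27. The control lay above DN1 and DN1 above both DN2 stages without overlap, and the DN2 stages overlapped each other. The log2FC was -4.90 in DN1 (SE of 0.80 and adjusted p of 0.00272), -7.95 in DN2a (SE of 0.95 and adjusted p of 4.1e-04) and -8.69 in DN2b (SE of 0.99 and adjusted p of 3.3e-04) over the control. All 3 calls held in every fit with a library left out, the DN2b value ranging from -10.58 (without DN2b replicate 2) to -7.86. Against DN1 the log2FC was -3.05 in DN2a (adjusted p = 0.186) and -3.80 in DN2b (SE of 0.85 and adjusted p of 0.0632), which did not pass. The DN2b value was -4.19 with the replicate block (adjusted p = 0.0502), and it passed with DESeq2 (adjusted p = 9.5e-05), with scaling to library size (0.0420) and without the filter (0.0306). *Tbc1d23* (r = 0.998) and *Tnfrsf1a* (r = 0.994) had the most similar patterns.

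*Cxcr2* (chromosome 1, 74153989 to 74161246, plus strand), the neutrophil receptor of CXCL1 and CXCL2, had 65.7, 38.4, 67.1 and 38.8 CPM in the control. DN1 had 4.90 and 2.33 CPM, DN2a 1.71 and 2.44, and DN2b 2.54 and 2.27. The control was far above all DN libraries, which overlapped among themselves. The log2FC over the control was -4.16 in DN1 (SE of 0.48 and adjusted p of 6.5e-04), -4.76 in DN2a (SE of 0.50 and adjusted p of 2.4e-04) and -4.54 in DN2b (SE of 0.50 and adjusted p of 2.8e-04). These calls held in all 10 fits with a library left out. Between DN2b and DN1 the log2FC was -0.38 (SE of 0.47 and adjusted p of 0.782). Beside this, the neutrophil list was at 2837 CPM in DN1 replicate 1 and 68.4 in replicate 2, where *Cxcr2* had 4.90 and 2.33 CPM. The list was at 2.84 and 4.89 CPM in DN2a, with *Cxcr2* at 1.71 and 2.44. In DN2b the list was at 0.911 and 1.21 CPM, with *Cxcr2* at 2.54 and 2.27. The part of neutrophils in *Cxcr2* was not tested. *5430435G22Rik* (r = 0.997) had the nearest pattern.

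*Ccr2* (chromosome 9, 124101950 to 124113557, plus strand), the monocyte receptor of CCL2, had 334, 733, 767 and 1196 CPM in the control. Among earlier-dated libraries DN1, DN2a and DN2b had 54.5, 17.3 and 9.43 CPM. Among later-dated ones they had 493, 103 and 187 CPM. Each later-dated library was far above its earlier-dated counterpart, DN1 overlapped the control, and DN2a and DN2b lay below every control library. The log2FC over the control was -1.64 in DN1 (SE of 1.23 and adjusted p of 0.335), -3.66 in DN2a (SE of 1.38 and adjusted p of 0.0549) and -3.01 in DN2b (SE of 1.33 and adjusted p of 0.0941). With a library left out, the value ranged from -4.09 to -0.78 in DN1 and from -5.52 to -2.87 in DN2a. DESeq2 called the DN2a and the DN2b difference (adjusted p = 0.00818 and 0.0364), and the DN2a difference also passed without the filter (0.0438) and with only the groups compared (0.0111). Without DN2b replicate 2 the DN2b value was -6.33 and passed (adjusted p = 0.0309). The DN2a difference also passed (adjusted p from 0.0269 to 0.0400) when a DN1 or DN2b library was left out. DN2a was below DN1 at both dates, by log2 ratios of -1.63 and -2.25, as was DN2b, by -2.47 and -1.39, but the pooled differences did not pass (adjusted p = 0.642 and 0.713). Without DN1 replicate 2 they turned to 0.43 and 1.09. *Als2cl* (r = 0.965) was among the 2 genes with the nearest patterns.

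*Cx3cr1* (chromosome 9, 119901616 to 120069879, minus strand), the fractalkine receptor of monocytes and macrophages, had 22.3, 24.4, 16.7 and 29.8 CPM in the control. DN1 had 53.1 and 10.1 CPM, DN2a had 7.03 and 1.08, and DN2b had 9.89 and 4.13. The DN1 libraries stood on either side of the control, and all DN2 libraries were below both. The log2FC was 0.13 in DN1 vs IgG (SE of 0.72 and adjusted p of 0.910), -2.59 in DN2a vs IgG (SE of 0.84 and adjusted p of 0.0312) and -1.79 in DN2b vs IgG (SE of 0.80 and adjusted p of 0.0979). The DN2b difference passed with DESeq2 (adjusted p = 0.0306) and with only DN2b and the control in the fit (0.0171). The DN1 value was -1.40 without DN1 replicate 1, and -0.01 without control R1. With a library left out, the DN2a value ranged from -4.46 to -1.83. The DN2a call was lost without DN2a replicate 2 (log2FC -1.83, adjusted p = 0.150) and without control R2 (-2.55, 0.0533), and with D1 and D2 (0.0737) or R1 and R2 (0.0789) as the only controls. Against DN1, DN2a had a log2FC of -2.72 (SE of 0.90 and adjusted p of 0.303) and DN2b one of -1.92 (SE of 0.88 and adjusted p of 0.378). At each date DN2a was below DN1, by log2 ratios of -2.83 and -2.75. *Ube2v1* (r = 0.925) and *Spata2* (r = 0.908) had the nearest patterns.

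Levels were compared between genes per kb of exon, with CPM divided by the merged exon length of protein-coding transcripts. In the control, *Ccr1* had 168 ± 46.2 CPM per kb (SD, n = 4), *Cxcr4* 139 ± 17.2 and *Ccr2* 112 ± 52.1, and the values of these 3 genes overlapped between libraries. *Cxcr2* followed with 17.2 ± 5.27, *Ccr7* with 8.44 ± 12.7 and *Cx3cr1* with 5.18 ± 1.20. *Ccr7* exceeded *Cx3cr1* in D2 alone (27.3 against 5.42 CPM per kb), and in D1, R1 and R2 it had 1.05, 0.443 and 4.96 against 4.95, 3.72 and 6.62. In DN2b *Cxcr4* led with 76.0 ± 26.4 CPM per kb (SD, n = 2), followed by *Ccr7* with 25.7 ± 8.49, *Ccr2* with 14.6 ± 18.6 and *Cxcr5* with 13.4 ± 13.5, and the last 3 overlapped. *Ccr7* had 31.7 CPM per kb in replicate 1 and 19.7 in replicate 2, where *Cxcr5* had 23.0. *Ccr2* had 1.40 CPM per kb in replicate 1, below *Cxcr5* (3.85) and *Cx3cr1* (2.19), and 27.7 in replicate 2. Of the summed CPM per kb of the 9 members, *Ccr1* made up 26.5 to 47.3% in the control libraries. The lower and the higher library had 5.90 and 8.39% for DN1, 0.523 and 1.23% for DN2a, and 0.117 and 0.474% for DN2b. *Cxcr4* made up 27.3 to 35.0%, then 38.2 and 57.7%, 68.3 and 74.2%, and 56.2 and 58.6%. The DN2b libraries differed in the rest. *Ccr7* held 32.4% in replicate 1 and 11.7% in replicate 2, beside 0.0998 to 5.18% in the control, where D2 was highest. *Cxcr5* held 3.94 and 13.6%, beside at most 0.0173% in the control. The sum itself was 395.7 to 527.6 CPM per kb in the control libraries. DN1 libraries had sums of 66.0 and 141, those of DN2a 66.3 and 95.03, and those of DN2b 97.8 and 169.

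The libraries of a stage differed by date in a way that several members shared. *Ccr2* was 9.06, 5.97 and 19.9 times as high in the later-dated as in the earlier-dated library of DN1, DN2a and DN2b. *Cxcr5* was 14.7, 2.86 and 5.97 times as high, from 1 count in DN1 replicate 1. *Ccr1* was 1.50, 3.36 and 6.97 times as high, and *Cxcr4* 1.41, 1.32 and 1.65 times. In the other direction, *Cx3cr1* was 5.25, 6.52 and 2.40 times as high in the earlier-dated library. *Ccr7* was higher in the later-dated library of DN1 (3.06 times) and lower in DN2a and DN2b (ratios of 0.708 and 0.622). The date was not tested as a factor, and what differed between the dates other than the date is not given in the sources used here. The macrophage and monocyte list summed to 308 and 64.7 CPM in the earlier-dated and later-dated library of DN1, the opposite order to *Ccr2*. Those of DN2a had 13.5 and 18.3 CPM and those of DN2b 16.8 and 47.5, the same order as *Ccr2*. The dendritic cell list had the order of *Ccr2* in all 3 stages, with 67.5 and 224, 27.1 and 38.7, and 5.53 and 11.4 CPM. Of its 5 genes, 2 exceeded the floor in DN2a and 2 in DN2b, with *Siglech* and *Clec9a* at 0 in all DN2 libraries. The B cell list had the same order in all 3 stages, with 10.1 and 13.8, 6.01 and 9.70, and 5.85 and 11.1 CPM. Of its 6 genes, 3, 1 and 2 exceeded the floor in DN1, DN2a and DN2b. The part of these cells in the differences by date was not tested.

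**Figure D3:**
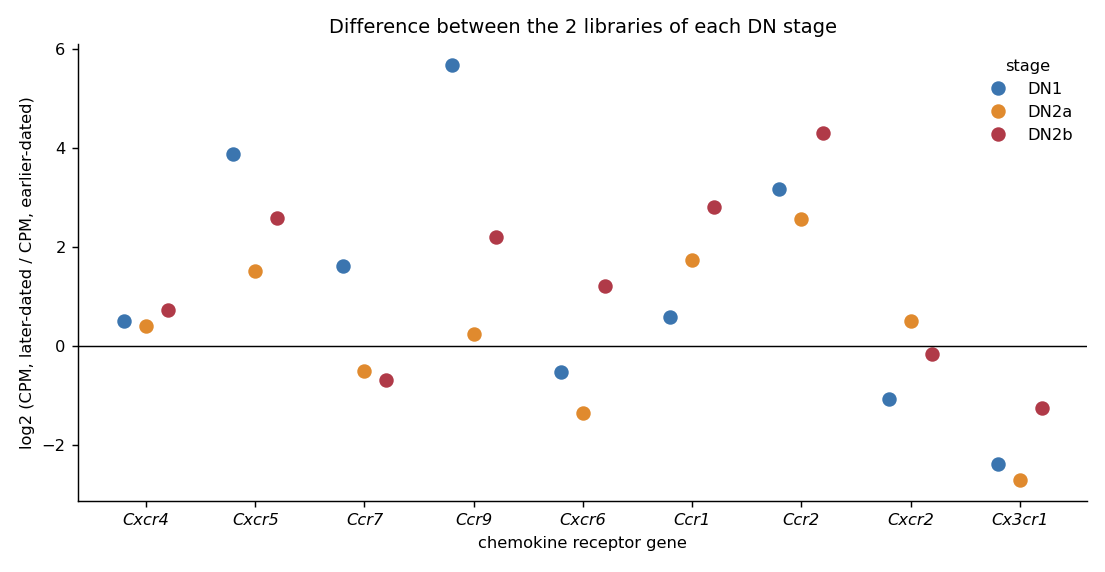
log2 ratio of CPM in the later-dated over the earlier-dated library (y axis) for each receptor (x axis) in DN1, DN2a and DN2b, 1 point per stage and no replicates within a date. Points of *Ccr2* and *Cxcr5* lie above 0 in all 3 stages and those of *Cx3cr1* below 0. The *Ccr9* point of DN1 rests on 1 and 42 counts.

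Of the 9 members, 6 are on chromosome 9, and 4 of them (*Ccr9*, *Cxcr6*, *Ccr1* and *Ccr2*) lie within 435.1 kb of each other, in a cluster that also holds *Xcr1*, *Ccr1l1* and *Ccr3*. Genes of the cluster differed in level. *Ccr9* and *Cxcr6* at one end were near the floor in the control, while *Ccr1* and *Ccr2* were among its highest receptors. *Ccr1l1*, the gene next to *Ccr1*, did not exceed 0.630 CPM in any library. In DN1, *Ccr2* had 493 CPM in replicate 2 while *Ccr3* had 0.865.

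**Figure D4:**
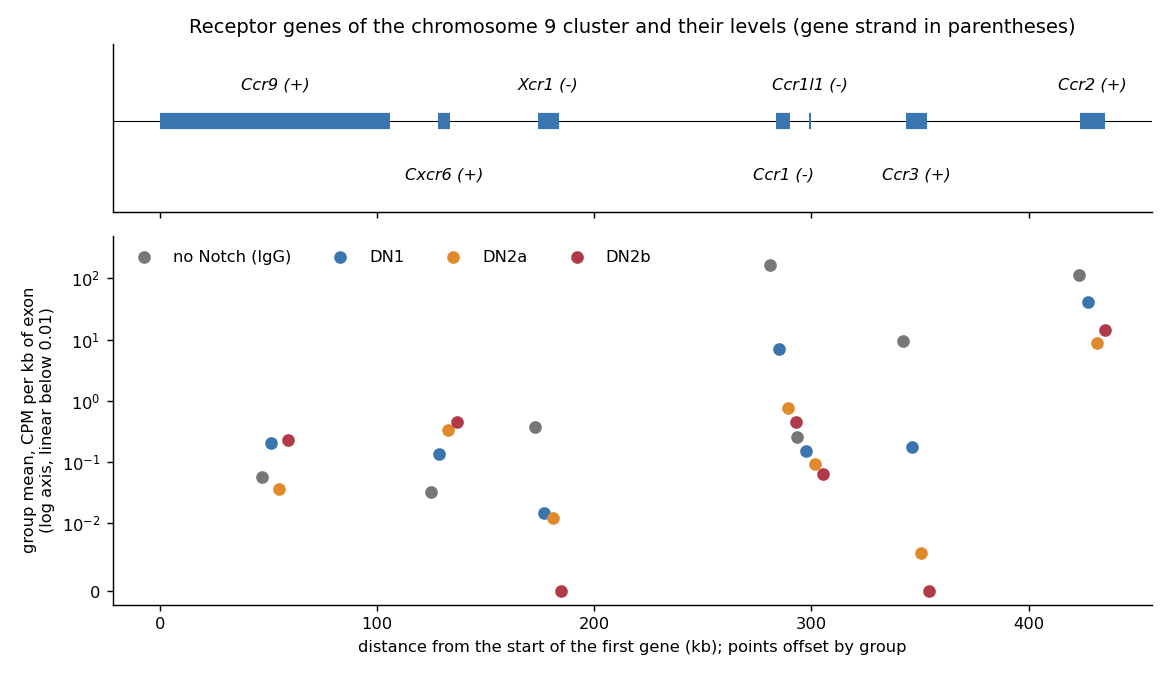
Receptor genes of the chromosome 9 cluster drawn to scale by distance from the start of *Ccr9* (x axis, kb), above the group mean level of each gene (y axis, CPM per kb of exon, log axis that is linear below 0.01). Points are means of 4 control libraries or 2 libraries of a DN stage, offset sideways by group. Control points are the highest for *Xcr1*, *Ccr1*, *Ccr1l1*, *Ccr3* and *Ccr2*, and the lowest or second lowest for *Cxcr6* and *Ccr9*.

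Of the 14 other chemokine receptors, 7 passed the filter. In DN1, DN2a and DN2b vs IgG 1 was higher each time (beside 14.3, 21.2 and 19.9% of all genes) and 3, 4 and 3 were lower (beside 17.0, 24.3 and 22.5%). *Ccr4*, the receptor of CCL17 and CCL22 on T cells, held 0, 2, 1 and 0 counts in the control. DN1 libraries held 25 and 9 counts, those of DN2a 170 and 66, and those of DN2b 123 and 112. Against a floor of 3 counts per library it was at least 7.07-fold, 48.6-fold and 75.9-fold higher in DN1, DN2a and DN2b (adjusted p = 0.00561, 3.6e-04 and 2.5e-04), and all 3 calls held with each library left out, the DN1 bound becoming 4.33-fold without DN1 replicate 1. Each DN stage lay above the control without overlap. In DN2b vs DN1 its log2FC of 3.62 (SE of 0.88) missed the threshold (adjusted p = 0.0888), and with the replicate block it passed (3.67, adjusted p = 0.0448).

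*Ccr3*, an eosinophil receptor, had 86.7 CPM in control D1 and 8.90 to 20.7 in the other controls, with 0.265 and 0.865 CPM in DN1 and at most 1 count in DN2 libraries. Its log2FC was -6.13 in DN1 (adjusted p = 0.0135), and it was at least 194-fold lower in DN2a and at least 144-fold lower in DN2b. Without D1 these bounds were 80.3-fold and 59.6-fold. *Ccrl2*, which binds chemerin without signalling, fell by a log2FC of -1.62, -2.56 and -2.18 (adjusted p = 0.0304, 0.00376 and 0.00779). *Xcr1*, a receptor of cross-presenting dendritic cells, did not exceed the floor in any DN library, and its drop was at least 11.5-fold in DN1, 10.4-fold in DN2a and 7.72-fold in DN2b (adjusted p = 0.0183, 0.0124 and 0.00691). *Ccr10*, which binds CCL27 and CCL28, was called in DN2a vs IgG, at least 9.12-fold lower (adjusted p = 0.0209), and DN2a did not pass against DN1 or DN2b (adjusted p = 0.633 and 1.0). With single libraries left out, calls in DN1 were lost for *Ccr3* (without either DN1 library), *Xcr1* (DN1 replicate 2) and *Ccrl2* (either DN1 library or control R1). Calls in DN2a were lost for *Ccrl2* and *Ccr10* (DN2a replicate 1) and *Xcr1* (either DN2a library), and in DN2b for *Ccrl2* (DN2b replicate 1), the highest adjusted p of each lying between 0.0512 and 0.146. *Cxcr3* (log2FC from -2.87 to -1.62) and the CXCL12 scavenger *Ackr3* (1.80 to 3.16) were not called, and none of the 7 was called between DN stages by edgeR. In DN2a vs DN1, DN2b vs DN1 and DN2b vs DN2a 1 of the 7 each had an unadjusted p under 0.05, and DESeq2 called 1, 1 and 0. Beside these, 1328, 1694 and 335 of all 12221 genes had such a p, and DESeq2 called 474, 822 and 29.

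The ligands that passed were all lower. Of 40 chemokine genes 19 were tested, and 17 were lower and 0 higher in each DN stage vs IgG (beside 17.0 to 24.3% of all genes lower), with a median log2FC of -4.89, -6.47 and -7.03 once genes at the floor were set to their bound (-6.09, -9.11 and -8.88 as fitted). These counts rested on single libraries. They fell to 9, 5 and 11 in DN1 without DN1 replicate 1, DN1 replicate 2 or control R1, to 7 and 11 in DN2a without replicate 1 or 2 of DN2a, and to 8 and 11 in DN2b without replicate 1 or 2 of DN2b. Between DN stages edgeR called 0. In DN2a vs DN1, DN2b vs DN1 and DN2b vs DN2a 3, 4 and 1 had an unadjusted p under 0.05, and DESeq2 called 3, 3 and 0. Of all 12221 genes, 1328, 1694 and 335 had such a p, and DESeq2 called 474, 822 and 29. By fitted log2FC in DN2b vs IgG the rule named *Cxcl16*, *Ccl8* and *Ccl7*, but 12 of the 19 ligands were at the floor in DN2b, so their order is not determined. *Cxcl16*, the ligand of CXCR6, had 61.8 to 228 CPM in the control and at most 2 counts in any DN library, at least 525-fold lower in DN2b (adjusted p = 6.7e-04). *Ccl7*, a ligand of CCR2, had 2.57 to 79.5 CPM in the control and no count in DN2a or DN2b, at least 196-fold lower in DN2b (adjusted p = 0.00932). *Ccl8*, at 0.277 to 95.0 CPM in the control, had no count in any DN library (at least 285-fold lower in DN2b, adjusted p = 0.0257). With a library left out, the DN2b call held in 10 of 10 fits for *Cxcl16*, in 9 for *Ccl7* (not without DN2b replicate 1) and in 8 for *Ccl8* (not without either DN2b library).

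Signalling genes downstream of the receptors were mostly lower among those called. Of 33 genes for Gi subunits, receptor kinases, arrestins, RGS proteins and effectors, 32 were tested. DN1 vs IgG had 1 higher and 10 lower, DN2a vs IgG 2 and 18, and DN2b vs IgG 2 and 19, beside the same shares of all genes, with median log2FC of -0.53, -0.77 and -0.97. The 11 calls in DN1 became 7, 4 and 6 without DN1 replicate 1, DN1 replicate 2 or control R1. The 20 calls in DN2a became 8 and 11 without replicate 1 or 2 of DN2a, and the 21 in DN2b became 10 and 11 without replicate 1 or 2 of DN2b. *Arrb1*, which encodes a β-arrestin, a protein that ends receptor signalling, had 113 to 139 CPM in the control. DN1 libraries lay at 36.5 and 68.7 CPM, those of DN2a at 9.29 and 16.4, and those of DN2b at 8.85 and 15.7. DN2b differed by a log2FC of -3.47 from the control (SE of 0.39 and adjusted p of 3.1e-04) and of -1.90 from DN1 (SE of 0.39 and adjusted p of 0.0452), with no overlap between DN2b and either. The call against DN1 held in 1 of 10 fits with a library left out and was lost with the replicate block (-1.98, adjusted p = 0.132). *Plcb2*, a phospholipase activated by G protein βγ subunits, fell by a log2FC of -2.49 in DN2b vs IgG (SE of 0.36 and adjusted p of 9.3e-04), and *Rgs16*, with 1 count or fewer in DN2b, lay at least 5.13-fold below its control level of 0.539 to 1.70 CPM (adjusted p = 0.0210, not called without DN2b replicate 1).

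Of the signalling list, 3 genes were lower and 0 higher in DN2b vs DN1 (beside 0.892% and 1.01% of all genes). There 12 had an unadjusted p under 0.05 and DESeq2 called 7, beside 1694 and 822 of all 12221 genes. The edgeR count was 0 to 3 with a library left out. The edgeR test called 0 in DN2a vs DN1 and in DN2b vs DN2a, where 7 and 3 had an unadjusted p under 0.05 and DESeq2 called 3 and 0. Over all 12221 genes, 1328 and 335 had such a p, and DESeq2 called 474 and 29. The 3 lower genes were *Arrb1* and 2 RGS genes. *Rgs10* had 86.4 and 108 CPM in DN1 and 12.4 and 13.1 in DN2b, a log2FC of -2.74 (SE of 0.41 and adjusted p of 0.0153). *Rgs18*, known from megakaryocytes and platelets, had 138 and 158 CPM in DN1 and 15.1 and 25.8 in DN2b, a log2FC of -2.65 (SE of 0.51 and adjusted p of 0.0342). With a library left out, the call held in 7 of 10 fits for *Rgs10* (not without DN1 replicate 1 or either DN2b library) and in 2 of 10 for *Rgs18* (only without control D2 or R2). In the same libraries the megakaryocyte list summed to 405 and 132 CPM in DN1 and 16.8 and 25.7 in DN2b. Of its 3 genes, 3 exceeded the floor in DN1 and 1 in DN2b, where *Gp9* was at 0 in both libraries. The part of megakaryocytes in *Rgs18* was not tested. DN1 exceeded the control for *Rgs18* (log2FC 2.10, SE of 0.39 and adjusted p of 0.00481).

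The study asked how the CpG content of promoters relates to Notch responses and counted CpGs over a longer window. Here the stretches before the transcription starts of members were read from RefSeq (GRCm38.p6). A promoter was matched for 7 of 9 members, not for *Cxcr5* and *Ccr7*. The 250 bases upstream are printed for *Cxcr4* and *Ccr1*, the members with the highest and one of the lowest CpG ratios, both lower in all DN stages, with CpG dinucleotides in capitals and the sequence 5′ to 3′ on the strand of the gene.
Cxcr4 (chr1:128592300-128592549, minus strand): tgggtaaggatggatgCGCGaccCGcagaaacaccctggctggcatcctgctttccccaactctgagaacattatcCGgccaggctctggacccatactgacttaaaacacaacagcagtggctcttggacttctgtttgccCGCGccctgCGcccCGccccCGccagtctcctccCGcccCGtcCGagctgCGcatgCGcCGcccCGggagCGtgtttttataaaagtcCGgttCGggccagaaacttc
Ccr1 (chr9:123968693-123968942, minus strand): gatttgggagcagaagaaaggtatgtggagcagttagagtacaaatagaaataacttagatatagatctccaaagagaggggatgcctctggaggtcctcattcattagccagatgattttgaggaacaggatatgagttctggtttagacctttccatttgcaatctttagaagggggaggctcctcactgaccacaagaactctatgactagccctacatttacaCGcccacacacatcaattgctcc
*Cxcr4* had 19 CpGs there and an observed over expected CpG ratio of 0.838, at percentile 83.8 of 32851 promoters, whose median was 0.373. *Ccr1* had 1 CpG and a ratio of 0.0845 (percentile 12.7). The other matched members lay between 0.0543 (*Cxcr2*) and 0.255 (*Cxcr6*). Of the motifs searched on both strands, TGGGAA, the core bound by the Notch partner RBPJ, was found for *Cxcr2* and *Cx3cr1* and in 21.6% of all promoters. TGTGGT, a Runx core, was found for *Ccr1*, *Cx3cr1* and *Cxcr6* and in 14.05%. TATAAA was found for *Cxcr4* and in 12.4%, and GAGGAAGT, a PU.1 box, for none of the members and in 2.44%. A match describes the letters of this window and says nothing of binding.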

How the data were processed

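RNA was measured in 10 mouse libraries (4 control, 2 of each DN stage), sequenced from total RNA with a stranded kit. Per the labels and the study's methods, the authors placed 36-base reads, taken from the start of 1 read end, on mm10 with TopHat2 2.12 and counted uniquely placed reads per gene with HTSeq 0.6.1p1 (intersection-strict); Cufflinks 2.2.1 is also named. The deposited values are raw counts. The annotation and the strand setting of the counting are not given in the sources used here. Summary lines of the counter (20.5 to 41.0% of tallied reads, of which multimapped reads were 16.4 to 30.1%) were left out.

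CPM was the count over all reads on genes, from 12354635 to 35367925 per library. The floor of 3 counts covers counting error only. The 12221 genes that reached 1 CPM in 2 or more libraries entered 1 edgeR 4.0.16 quasi-likelihood fit (R 4.3.3) of the 4 groups with TMM factors, prior count 0.125 and Benjamini-Hochberg adjustment over all of them. Standard errors are the absolute log2FC over the root of F. The method was tested on simulated data. DESeq2 1.42.0, other scalings and filters, other sets of libraries, each library left out and a replicate block were tried. Replicates were separate LSK isolates. Per the study's methods each gave DN1, DN2a and DN2b cells, and DN2a and DN2b share dates in the labels, so the replicate number was taken as a pairing, for DN1 by its nearest date. Deviations of same-numbered libraries correlated at r = 0.173 between DN2a and DN2b and at 0.0849 and 0.315 between DN1 and these. Blocked values stand beside results they change. Which isolates gave the controls is not given in the sources used here. No replicate pair was a library deposited again (chi-square per degree of freedom from 53.8 to 513). Levels per kb and positions used GENCODE vM21, and promoters RefSeq (GRCm38.p6). Similar patterns were the highest Pearson r among genes of at least 5 CPM on average, up to 2 named per member. Some items that these rules would name are not reported here. Of the ligand and signalling lists, the 3 genes called with the largest change in DN2b vs IgG and the 3 in DN2b vs DN1 were named. The members and lists were chosen with earlier results of these data known.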

Additional observations from a re-analysis of the deposited data

Results flagged for a closer look

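Among the 4 control libraries, 3 of 16 receptors had 1 library whose gap to the nearest other, divided by the range of the group, exceeded Dixon's critical value of 0.829, which chance passes in about 1 of 20 groups. For *Ccr7* the ratio was 0.832, with D2 at 54.0 CPM above 0.877 to 9.81 CPM in the others. For *Ccr3* it was 0.849, with D1 at 86.7 CPM above 8.90 to 20.7. For *Ccr10* it was 0.867, with D1 at 0.339 CPM below 1.72 to 1.94. The *Ccr7* difference between DN2b and the control passed without D2, as given with that gene.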

How the results depend on the processing

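Of 247 refits of the 13 called member differences, 228 kept the direction and the call, 19 kept the direction and lost the call, and 0 changed direction. Of 647 refits of the 35 differences not called, 610 stayed so, 21 passed and 16 changed direction. The members called in DN2a vs DN1 were 0 in the reported fit, 3 with DESeq2 and 1 with the replicate block, and in DN2b vs DN1 1, 2 with DESeq2, with scaling to library size only or without the filter, and 0 with only the groups compared. With each library left out, 3, 4 to 6, 3 to 5, 0 and 0 to 1 members were called in DN1, DN2a and DN2b vs IgG, DN2a vs DN1 and DN2b vs DN1. The other alternatives called 3, 4 to 7 and 4 to 6 members in the 3 comparisons with IgG, against 3, 5 and 4 as reported.

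Directions changed for differences that were not called. *Cx3cr1* in DN1 vs IgG was -0.028 with controls D1 and D2 only and -1.40 to 0.86 with a library left out. *Ccr7* in DN2a vs IgG was 1.75 with controls R1 and R2 only and -0.60 to 2.005. With a library left out, *Cxcr5* in DN1 vs IgG ranged from -1.91 to 1.90 and *Ccr2* in DN2a vs DN1 from -3.88 to 0.43. In DN2b vs DN1, *Ccr9* ranged from -0.73 to 0.97, *Cxcr2* from -0.76 to 0.17 and *Ccr2* from -4.69 to 1.09. In DN2b vs DN2a, *Ccr2* ranged from -2.67 to 2.52, *Cxcr2* from -0.064 to 0.52, *Ccr1* from -2.64 to 0.37 and *Cx3cr1* from -0.010 to 2.66. The cause was not tested.

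Over all genes, DN2a vs DN1 gave 49 calls, 474 with DESeq2, 101 without the filter, 25 with only the groups compared, 32 in the 6 DN libraries and 58 with the replicate block. DN2b vs DN1 gave 233, with 822, 80 (groups compared), 187 and 233 likewise. With controls D1 and D2 only, DN1 vs IgG gave 2329 and DN2b vs IgG 3264 calls. With a library left out, DN1 vs IgG gave 1867 (without DN1 replicate 2) to 4163 calls against 3834, DN2a vs IgG 2686 (DN2a replicate 1) to 6016 against 5559, and DN2b vs IgG 2683 (DN2b replicate 1) to 5674 against 5190. DN2a vs DN1 gave 0 (without either DN2a library) to 229 (DN1 replicate 2), and DN2b vs DN1 51 (DN2b replicate 2) to 383 (DN1 replicate 2), so the shares of all genes beside the members move with single libraries. Beside *Cxcr5*, *Ccr4* and *Arrb1*, as given with these genes, the replicate block changed no call among the members and the receptor, ligand and signalling genes it tested.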
